A study of Mus musculus with 5 samples.

Results

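Rab genes encode small GTPases that direct vesicle traffic between the membranes of the cell. The set comprised the autosomal protein-coding genes of the GENCODE vM1 annotation whose name is Rab followed directly by a number, leaving out names that continue with ip, fip or gap. There were 55 of them among 21281 autosomal protein-coding genes. Of these, 53 are Rab GTPase genes by name. The other two are Rab3il1, whose product is an exchange factor rather than a Rab, and Rab42-ps, a pseudogene by name that the annotation lists as protein-coding. Rab9, Rab9b, Rab33a and Rab39b lie on the X chromosome and were outside the rule.

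A Rab protein switches between a GDP-bound and a GTP-bound form. Exchange factors load it with GTP at its target membrane, GTPase-activating proteins return it to the GDP form, and effectors such as tethers and motor adaptors bind the GTP form. A prenyl group anchors it in the membrane, and GDP dissociation inhibitors (GDI) carry it back through the cytosol. In dendritic cells and macrophages these proteins are known for steering endocytosis, phagosome maturation, antigen processing and cytokine release.

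The binding of Runx3, a RUNX-family transcription factor, was profiled by ChIP-seq (sequencing of DNA that is pulled down with a protein) in D1, a mouse dendritic cell line of splenic origin according to its labels. All 5 libraries came from this line, 3 with polyclonal rabbit anti-mouse Runx3 antibody (Runx3 IP) and 2 with non-immune serum of the rabbit as control (NIS IP). One list of 13014 peaks, 12905 of them on autosomes, was called by the authors from 8689867 Runx3 tags and 4946605 NIS tags after duplicate removal. D1 is a single line whose dendritic cell label could not be checked against marker genes, since these data measure no expression, and which libraries the tags pool is not stated, so the values carry no replicate error and intervals cover counting error only.

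A Rab gene was called bound when the summit of a peak, its highest point, lay in the gene body or up to 5 kb upstream of its outermost transcription start site (TSS). The fold enrichment of a peak is the authors' ratio of Runx3 coverage to NIS background at the summit, each with 1 added. The number of Runx3 fragments over the summit was recovered from the same list, and its exact Poisson 95% interval was carried over to the fold. NIS background is given in units scaled to the NIS library, in which its genome average was 0.315. RUNX proteins bind a short DNA core, searched here as TGTGGT or TGCGGT on both strands within 100 bp of the summit.

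Runx3 peaks lay in the windows of 21 of the 55 Rab genes, or 38.2% (95% Wilson interval 26.5 to 51.4), with 37 peaks in all. The same rule called 28.1% of all autosomal protein-coding genes, a share inside that interval. Under some alternatives given below, the share of all genes lay below the interval of the Rab genes. The highest peak stood upstream of Rab35, with a fold of 30.2, and the next were upstream of Rab19, inside Rab37, at the start of Rab6 and inside Rab8b and Rab20. The remaining 34 genes had no peak, among them each Rab1, Rab4, Rab5, Rab7 and Rab11 gene of the set.

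The sequences under 8 of the strongest peaks show what these summits look like. Each is 100 bases of the mm9 reference around the summit, 5′ to 3′ on the plus strand, with the RUNX core in capitals. A core on the minus strand reads ACCACA or ACCGCA. The windows were taken from the 10 highest summits of the set. Rab37, whose summit lies at the promoter of the overlapping gene Cd300lf, was left out. So was Rab27a, whose core lies outside the 100 bases.
Rab35, chr5:116078261-116078360: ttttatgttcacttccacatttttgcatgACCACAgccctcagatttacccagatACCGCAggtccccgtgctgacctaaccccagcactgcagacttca
Rab19 near, chr6:39329934-39330033: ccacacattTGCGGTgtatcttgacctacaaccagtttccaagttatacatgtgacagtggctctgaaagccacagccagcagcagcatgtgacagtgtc
Rab19 far, chr6:39329414-39329513: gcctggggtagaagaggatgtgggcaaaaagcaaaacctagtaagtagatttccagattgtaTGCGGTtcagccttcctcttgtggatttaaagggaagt
Rab6, chr7:107755776-107755875: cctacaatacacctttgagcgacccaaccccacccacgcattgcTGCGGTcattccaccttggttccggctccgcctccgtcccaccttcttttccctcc
Rab8b, chr9:66721517-66721616: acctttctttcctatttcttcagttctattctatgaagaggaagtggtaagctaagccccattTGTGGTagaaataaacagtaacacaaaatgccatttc
Rab20, chr8:11464050-11464149: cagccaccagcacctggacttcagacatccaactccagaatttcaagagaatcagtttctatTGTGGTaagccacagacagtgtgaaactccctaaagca
Rab8a, chr8:74684652-74684751: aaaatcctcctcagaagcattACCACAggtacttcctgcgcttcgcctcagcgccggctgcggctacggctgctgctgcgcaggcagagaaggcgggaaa
Rab30, chr7:99889712-99889811: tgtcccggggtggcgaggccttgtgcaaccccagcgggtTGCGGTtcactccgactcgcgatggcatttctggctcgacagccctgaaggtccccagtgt
The Rab35 window holds both forms of the core on the minus strand. The Rab19 pair, Rab6 and Rab30 carry TGCGGT, while Rab8b, Rab20 and Rab8a carry TGTGGT or its complement.

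Among the genes of recycling and delivery to the cell surface, 4 of 11 had a peak, Rab35, Rab8b, Rab8a and Rab14. Rab35, which acts in fast recycling from endosomes to the plasma membrane, carried 1 peak at chr5:116078193-116078504, 3.63 kb upstream of its TSS in intergenic sequence. Its summit held 83 Runx3 fragments (66.1 to 103) over a NIS background of 0.595, a fold of 30.2 (24.2 to 37.3) and a −log10 q of 65.9. It ranked 29 among the autosomal peaks. Its interval lay above that of every other Rab peak, whose highest upper bound was 22.8. The summit had 3 RUNX cores within 100 bp, the nearest 7.5 bp away. Rab35 lies in distal chromosome 5 (from 110 Mb), where the median NIS background over 713 peaks was 0.594, against 0.333 at the 12192 other autosomal peaks. The part of this higher background in the fold of the Rab35 peak was not tested.

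Rab8a and Rab8b encode close paralogs that carry cargo from the Golgi and recycling endosomes to the surface, and both genes were bound. The strongest Rab8b peak, at chr9:66721477-66721650, was intronic and 45.9 kb into the gene, with 31 fragments over a background of 0.315 and a fold of 14.2 (9.88 to 19.8). The TSS nearest to it was that of Aph1c. A second intronic peak 32.7 kb downstream had a fold of 7.9, and the third, 10 bp downstream of the TSS and without a core, had 6.39. At Rab8a the order was the other way, with the stronger peak at the promoter. It lay at chr8:74684608-74685052, 0.397 kb upstream of the TSS, with 25 fragments over 0.315 and a fold of 11.6 (7.77 to 16.7). The intronic peak 8.25 kb downstream had a fold of 10.7 (7.15 to 15.4), and these Rab8a intervals overlap. Rab14, which works between the Golgi and endosomes, had 1 peak in its 5′ untranslated exon, 106 bp downstream of the TSS, with 22 fragments and a fold of 10.2. Rab10, Rab11a, Rab11b, Rab13, Rab15, Rab17 and Rab25 had none.

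Among the genes of the endoplasmic reticulum (ER) and Golgi, 6 of 12 had a peak. Rab19, a Golgi-associated Rab, carried a pair of peaks with summits 520 bp apart, both in intergenic sequence upstream of the gene. The peak nearer the gene, at chr6:39329871-39330087, was 1.19 kb upstream with 37 fragments over a background of 0.315 and a fold of 16.8 (12 to 22.8). The farther one, at chr6:39329383-39329571, was 1.71 kb upstream with 34 fragments over the same background and a fold of 15.5 (11 to 21.3). These peaks could not be ranked within counting error, and both also fell in the window of the neighbouring gene Slc37a3.

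Rab6, which acts in traffic within the Golgi and back to the ER, was bound at its start. Its stronger peak, at chr7:107755700-107755934, had its summit 98 bp upstream of the TSS, with 35 fragments over 0.315 and a fold of 15.9 (11.3 to 21.8). Its core was centred 3.5 bp from the summit. The other peak, 285 bp downstream of the TSS in the 5′ untranslated exon, was the weakest of the 37, with 13 fragments over a background of 1, a fold of 4.2 (2.47 to 6.83) and a −log10 q of 1.97. Both lie in the window of Mrpl48 as well, a gene on the opposite strand.

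Rab30, a Golgi Rab, had a promoter peak at chr7:99889712-99889869, 0.351 kb upstream, with 25 fragments over 0.357 and a fold of 11.2 (7.52 to 16.2). Rab2a, which serves transport between the ER and Golgi, had intronic peaks only. The one at chr4:8488596-8488773, 25.9 kb downstream, had 23 fragments over 0.315 and a fold of 10.7 (7.07 to 15.7), and was the strongest of the Rab peaks without a RUNX core. The second, 58.8 kb downstream, had a core and a fold of 8.22. Rab33b, a Golgi Rab that also takes part in autophagy, had a peak 93 bp downstream of its TSS, the widest of the set at 530 bp, with a fold of 9.85. Rab43, which is known for antigen cross-presentation by mouse dendritic cells, had peaks 1.16 and 2.75 kb downstream with folds of 7.45 and 6.79. Neither had a core within 100 bp of its summit. Rab1, Rab1b, Rab2b, Rab6b, Rab18 and Rab36 had no peak.

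The genes of regulated secretion had a peak in 5 of 8 cases. Rab37, which is found on secretory granules, had 5 peaks, more than any other Rab gene, spread over 28.4 kb of its introns. The strongest, at chr11:114995186-114995372, lay 42.5 kb downstream of the Rab37 TSS, with 45 fragments over a background of 0.595 and a fold of 16.7 (12.3 to 22.1). The others had folds of 7.45, 7.33, 6.61 and 5.52. These peaks cannot be assigned to Rab37 by position alone. Cd300lf, which encodes an inhibitory receptor of myeloid cells, lies inside the Rab37 body on the opposite strand, and its promoter holds the strongest peak. Its window takes in 4 of the 5, and its TSS is the nearest to each of those 4. The peak 15.4 kb downstream of the Rab37 TSS, with 14 fragments and no core, was in the Rab37 window alone.

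Rab27a, needed for the docking of secretory lysosomes and for exosome release, had a pair of intronic peaks with summits 13.5 kb apart. The stronger, at chr9:72921129-72921332, lay 28.6 kb downstream with 25 fragments over 0.315 and a fold of 11.6 (7.77 to 16.7). The other, 42.1 kb downstream, had 21 fragments and a fold of 9.85 (6.39 to 14.7). Each had a core, and the nearest TSS to both was that of 2410004A20Rik. The Rab3 genes, known for synaptic vesicles and for secretory granules, were bound in 3 of 4 cases. Rab3c had an intronic peak 95.8 kb downstream with a fold of 8.94, and Rab3a had one 25 bp upstream of its TSS with a fold of 6.69. Rab3d had 1 peak in untranslated exon sequence with a fold of 7.69 and 1 at 27 bp upstream of the TSS with 5.96, neither with a core. Rab3b, Rab26 and Rab27b had no peak.

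Of the endosomal groups, peaks lay in 2 of 8 early endosome genes and 2 of 9 genes of the late endosome, lysosome and phagosome. Rab20, which acts on phagosomes in macrophages, had 1 peak in an intron at chr8:11463982-11464236, 14.5 kb downstream, with 31 fragments over 0.357 and a fold of 13.7 (9.57 to 19.2). It had 2 cores. Rab39, of late endosomes and phagosomes, had a peak 11 bp downstream of its TSS with a fold of 9.8 and an intronic one 12.3 kb downstream with 6.76, neither with a core. Rab31, which carries cargo between the trans-Golgi and endosomes, had an intronic peak at chr17:66024069-66024306, 97.9 kb downstream, with 30 fragments over a background of 1 and a fold of 9.04 (6.26 to 12.7). Its core was centred 0.5 bp from the summit, and the nearest TSS was that of Txndc2. Rab21, of early endosomes and integrin traffic, had a peak 429 bp upstream with a fold of 7.33 and no core.

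No peak was listed for Rab4a, Rab4b, Rab5a, Rab5b, Rab5c and Rab22a of the early endosome, nor for Rab7, Rab7l1, Rab12, Rab24, Rab32, Rab34 and Rab38 of the later compartments. Among the 6 other or less studied genes, Rab40c and Rab23 were bound. Rab40c, whose product has a domain that recruits a ubiquitin ligase, had 3 peaks, the strongest at chr17:26050959-26051145, 5.61 kb downstream in an intron, with 23 fragments over 0.315 and a fold of 10.7 (7.07 to 15.7). Its others, 16.4 kb and 170 bp downstream, had folds of 10.3 and 6.82. Rab23, a negative regulator of Hedgehog signalling, had a peak 251 bp downstream of the TSS with 25 fragments over a background of 1 and a fold of 7.62. Rab28, Rab40b, Rab44, Rab3il1 and, outside the groups, Rab42-ps had none.

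**Figure D1:**
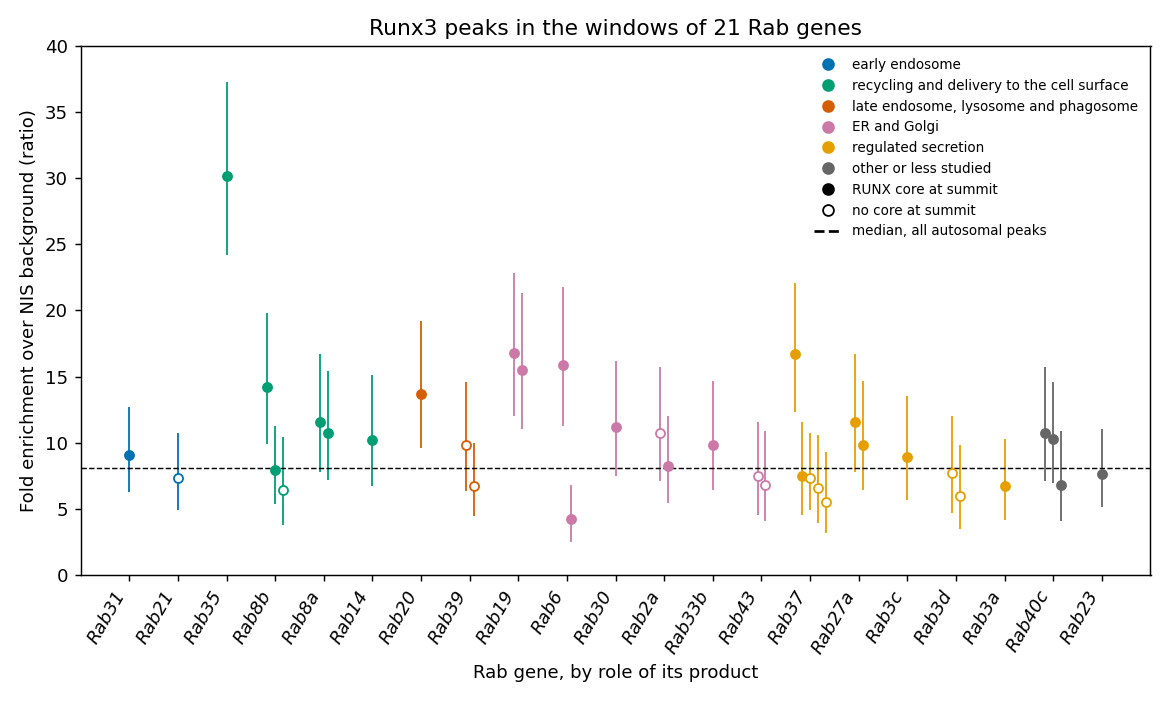
Fold enrichment over NIS background (vertical axis, ratio) of the 37 peaks, by Rab gene and coloured by role. Bars are 95% intervals from the fragment count, filled points have a RUNX core at the summit, and the dashed line is the median of all autosomal peaks, 8.12. The Rab35 peak, at 30.2, has its interval above all others.

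The share of bound genes in the role groups ran from 22.2% for late endosome, lysosome and phagosome (6.32 to 54.7) to 62.5% for regulated secretion (30.6 to 86.3). Between them were the early endosome at 25%, the other or less studied genes at 33.3%, recycling and surface delivery at 36.4%, and ER and Golgi at 50% (25.4 to 74.6). All these intervals overlap one another. The interval of the regulated secretion group starts above the 28.1% of all genes, but its count includes Rab37, whose strongest peak is at the Cd300lf promoter. A single bound gene moves the share of a group of 8 by a large step, so the order of the groups is a description of these counts.

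**Figure D2:**
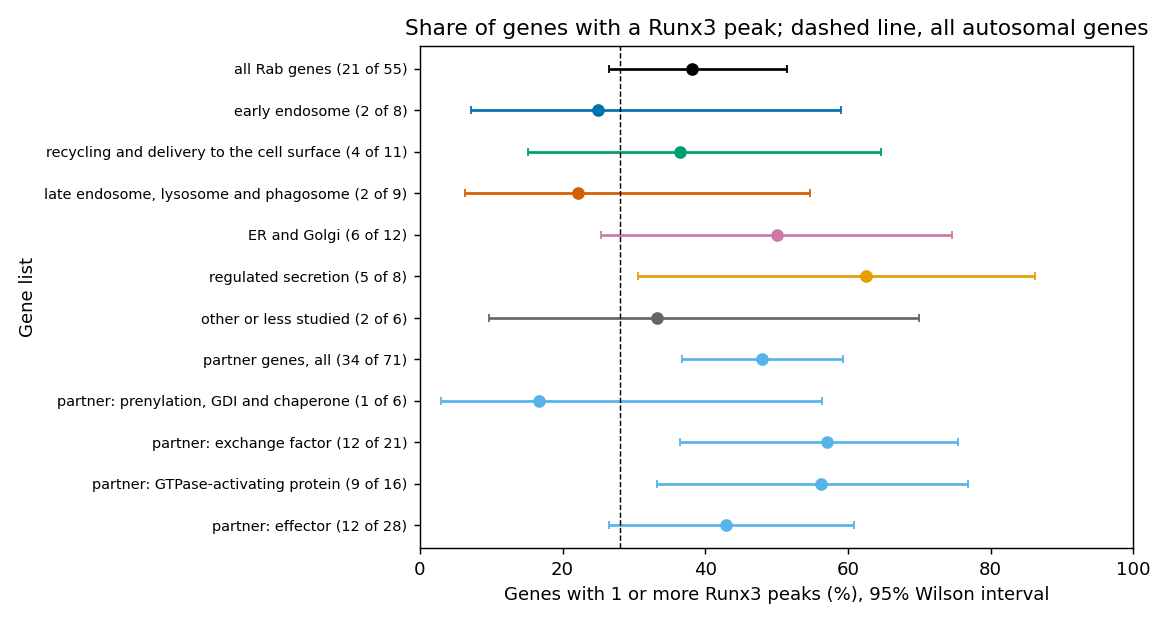
Percent of genes with 1 or more Runx3 peaks (horizontal axis) for the Rab genes, their role groups and the partner genes, with 95% Wilson intervals. The dashed line marks the 28.1% of all autosomal genes. The 34 of 71 partner genes lie at 47.9%, with an interval from 36.7 to 59.3.

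Stricter calls gave the Rab genes shares of 20% to 30.9%. A peak with a RUNX core was present in 17 genes, 30.9% (20.3 to 44), against 19.4% of all autosomal genes. A peak of fold 10 or more was present in 12, 21.8% (12.9 to 34.4), against 9.88%. For 2 or more peaks the count was 11, 20% (11.6 to 32.4), against 10.1%, and for a promoter peak, from 1 kb upstream to 100 bp downstream of any protein-coding TSS, it was 13, 23.6% (14.4 to 36.3), against 15.2%. For the core, fold and multiple-peak calls the share of all genes lay below the interval of the Rab genes, while for the promoter call it lay inside it. Rab37 enters the core, fold, multiple-peak and promoter calls through peaks that also lie in the Cd300lf window. Counted by its unshared peak, the core call was 16 of 55, 29.1% (18.8 to 42.1), an interval that takes in the 19.4% of all genes. The multiple-peak call was then 10, 18.2% (10.2 to 30.3), and the fold call 11, 20% (11.6 to 32.4). The promoter call was 12, 21.8% (12.9 to 34.4). With peaks in the window of 1 gene alone, for Rab and all genes alike, the multiple-peak share was 14.5% (7.56 to 26.2) against 7.99%. The core share was then 25.5% (15.8 to 38.3) against 15.4%, and the fold share 16.4% (8.86 to 28.3) against 8.16%. For the promoter call it was 20% (11.6 to 32.4) against 9.66%. In this setting the share of all genes lay inside the Rab interval for the multiple-peak call and below it for the core, fold and promoter calls. The bound Rab genes numbered 10 with 1 peak, 8 with 2, 2 with 3 (Rab8b and Rab40c) and 1 with 5.

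The median Rab gene spanned 23.3 kb against 15.6 kb for all autosomal genes. Over all autosomal genes, those with a peak had a median length of 30.3 kb and those without one 11.5 kb. Across genes, Spearman's rho between length and number of peaks was 0.22 for the 55 Rab genes and 0.31 for all autosomal genes, with no p since genes are not replicates. Within the set the bound genes had a median of 25.2 kb and the others 22.8 kb. The part of gene length in the share of bound Rab genes was not tested. Per unit of sequence, the Rab windows held 1.6 summits per 100 kb (exact Poisson interval 1.13 to 2.2, 37 summits in 2314 kb), against 0.863 (0.845 to 0.881) in the windows of all autosomal genes. Such intervals treat summits as independent, although 27 of the 37 lie in genes with 2 or more peaks. The 37 also include 8 summits that lie in the window of another gene. Leaving out the peaks shared with another gene's window left 29 peaks in 19 Rab genes, 34.5% (23.4 to 47.7). Of all genes, 21.8% were called in the same way, below this interval.

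Close paralogs did not always share a call. Both Rab8 genes were bound, whereas Rab2a, Rab6, Rab27a and Rab40c had peaks and Rab2b, Rab6b, Rab27b and Rab40b did not. Several unbound genes had a peak just outside their window. The nearest summit lay 0.335 kb beyond the window of Rab25, with a fold of 9.42, and 0.486 kb beyond that of Rab17, with a fold of 8.84. It was 1.92 kb away for Rab4b, 3.88 kb for Rab2b, 4.77 kb for Rab1b and 6.15 kb for Rab7, where its fold was 11.6. In all, 11 of the 34 had a summit within 10 kb of the window and 8 had none within 100 kb, with a median gap of 43.1 kb and a largest of 186 kb at Rab42-ps.

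Rab summits were found both at gene starts and deep in introns. By the annotation of any gene, 14 of 37 were in promoters, or 37.8% (24.1 to 53.9), 19 in introns, 1 in an exon and 3 in intergenic sequence. Promoters held 22.9% of all autosomal peaks, below that interval. The rule itself keeps to genes and their near upstream sequence, and among the 8882 autosomal peaks in gene windows chosen in this way the promoter share was 33.2%, inside it. The Rab37 peak among the 14 is at the Cd300lf promoter. Relative to the gene's own outermost TSS, 13 summits at 12 genes lay within 0.5 kb, and 16 lay beyond 10 kb. Of the 37, 8 were nearer to the TSS of another gene, 4 of them in Rab37.

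**Figure D3:**
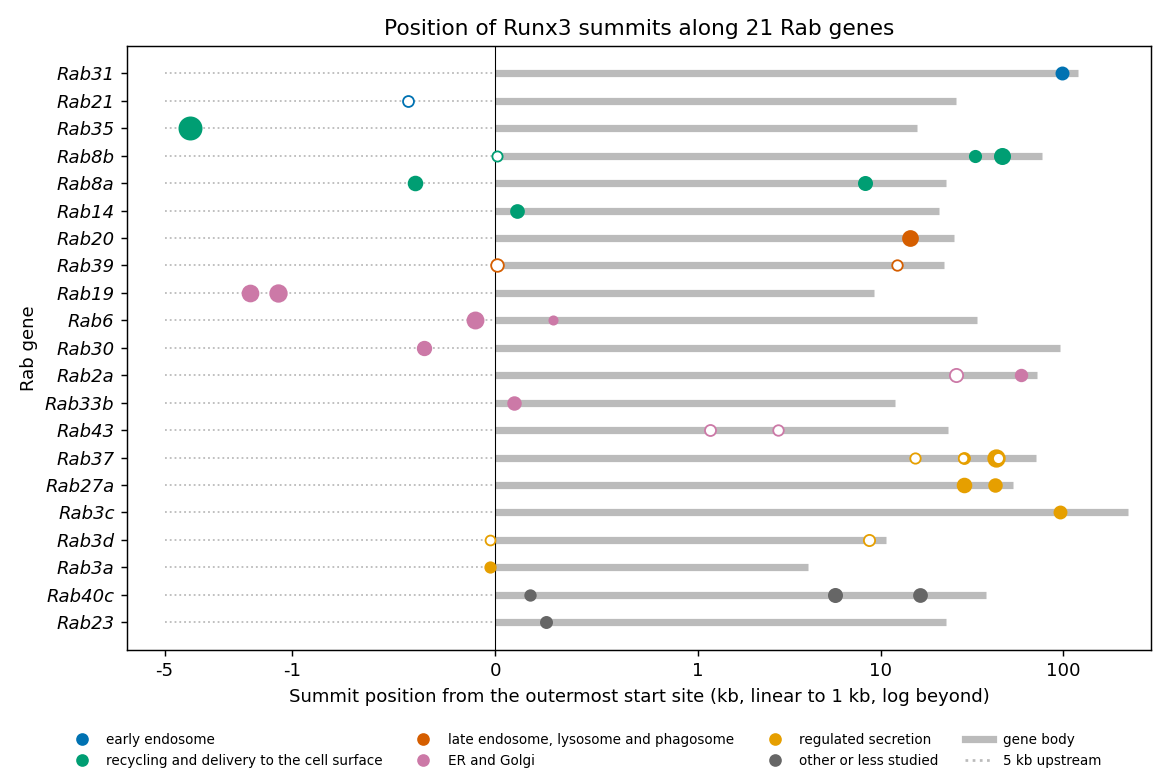
Position of the 37 summits from the outermost TSS of the 21 bound Rab genes (horizontal axis, kb, linear up to 1 kb on either side and logarithmic beyond). Point size grows with fold enrichment, filled points have a RUNX core, grey bars are gene bodies and dotted lines the 5 kb upstream. Of the summits, 13 lie within 0.5 kb of a start, 8 between 0.5 and 10 kb, and 16 beyond 10 kb.

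The Rab peaks had somewhat higher medians of fold and fragments than the whole list, a difference that was not tested. Their fold enrichment ran from 4.2 to 30.2 with a median of 9.04 and quartiles of 7.33 and 11.2, against a median of 8.12 over all autosomal peaks and 7.94 over those in gene windows. They held 11 to 83 fragments at the summit, with a median of 23 against 19. A fold of 10 or more was reached by 15 of 37, 40.5%, against 28.8% of all autosomal peaks. The median NIS background was 0.322 against 0.345, and 7 peaks, or 18.9%, lay over a background of 0.9 or more, against 17.3%. The median peak width was 185 bp against 173 bp, and the median GC content around the summit 52.7% against 50.2%.

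RUNX cores were more frequent at the Rab summits than in their flanks. Within 100 bp of the summit a core was found at 25 of 37, or 67.6% (51.5 to 80.4), against 64.1% of all autosomal peaks. In equally wide windows 1 kb to either side, a core was found at 10 upstream (27%) and 8 downstream (21.6%), beside 17.6% and 16.9% over all autosomal peaks. Upstream, 17 peaks had a core at the summit only and 2 in the flank only (two-sided exact McNemar test, p = 0.000729, adjusted p = 0.000729). Downstream these were 19 and 2 (exact p = 0.000221, adjusted p = 0.000443 over the 2 flanks). The test treats peaks as independent, although 27 of the 37 lie in genes with 2 or more peaks, and it compares summits with flanks, not Rab peaks with other peaks. With the strongest peak of each of the 21 genes alone, 16 had a core (76.2%), with 12 at the summit only and 1 in the upstream flank only, and 13 and 1 for the downstream flank (exact adjusted p = 0.00342 for both).

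The form TGTGGT occurred at 17 summits, 45.9%, against 52.5% of all autosomal peaks, and TGCGGT at 9, 24.3% (13.4 to 40.1), against 14.9%. With TGTGGT alone, the enrichment at the summit no longer passed the exact McNemar test against the flank with the larger p (adjusted p = 0.0923). The p for the other flank is not given here. Of the 25 summits with a core, 11 had one centred within 20 bp, and the median distance was 21.5 bp.

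**Figure D4:**
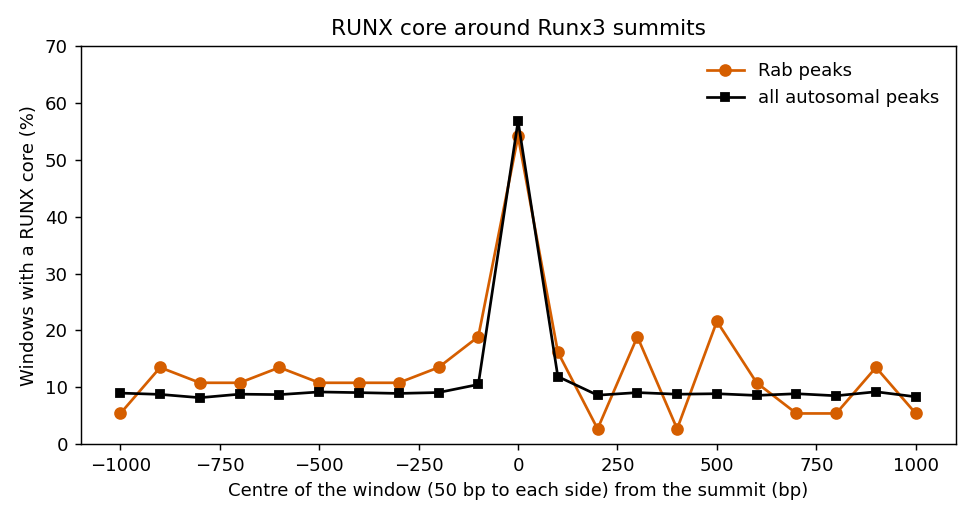
Percent of windows reaching 50 bp to each side of their centre that hold a RUNX core (vertical axis) by distance of the window centre from the summit (horizontal axis, bp), for the 37 Rab peaks and all 12905 autosomal peaks. At the summit the shares are 54.1% and 56.8%.

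Cores were also counted by the height of the peak. Peaks with a core had a median fold of 10.3 and the 12 without one 7.06, beside 8.55 and 7.33 over all autosomal peaks. Of the 15 peaks of fold 10 or more, 14 had a core, or 93.3%, the exception being the Rab2a peak 25.9 kb downstream. Below a fold of 10 it was 11 of 22, or 50%. The same shares over all autosomal peaks were 76.1% and 59.3%. At promoters of any gene, 10 of 14 Rab peaks had a core, 71.4%, against 47.1% of all autosomal promoter peaks. In introns it was 12 of 19, 63.2%, against 69.7%. These shares were not tested against each other. At the level of genes, 17 of the 21 bound Rab genes had a core within 100 bp of at least 1 summit. Rab3d, Rab21, Rab39 and Rab43 had none, though the Rab43 peak 1.16 kb downstream held a core farther from its summit.

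Motifs of other factor families were looked for in the same windows on both strands. The ETS-family motif GAGGAA was present at 13 summits, 35.1%, against 37.2% of all autosomal peaks, and CCGGAAG at 1, 2.7%, against 5.55%. The AP-1 motif TGANTCA was found at 1, the Rab8b peak 32.7 kb downstream, 2.7% (0.479 to 13.8) against 12.2%. The E-box CACGTG was found at none of the 37 (upper bound 9.41%), against 4.25%.

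The genes that load, switch off, prenylate or read Rab proteins were bound in 34 of 71 cases, or 47.9% (36.7 to 59.3), against 28.1% of all autosomal genes. These genes were long, with a median of 52.2 kb, and their windows held 0.974 summits per 100 kb (0.759 to 1.23), an interval that takes in the 0.863 of all autosomal gene windows. Without peaks in the distal part of chromosome 5, 30 of them were bound, 42.3%, against 26.7% of all genes. Exchange factors had a peak in 12 of 21 cases, 57.1% (36.5 to 75.5). The highest was at Sbf2, with 44 fragments and a fold of 19.8 at 4.53 kb upstream of the TSS. Rabgef1, whose product activates Rab5 at early endosomes, had 39 fragments and a fold of 15.2 at 0.743 kb downstream. Dennd1b, of a family that activates Rab35, had 7 peaks, and Rin3, which acts on Rab5-type GTPases, had 6.

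GTPase-activating proteins were bound in 9 of 16 cases, 56.2% (33.2 to 76.9). The highest folds were 13.3 at Rabgap1, 122 kb downstream in a gene of 123 kb, and 11.2 at Rabgap1l, 524 kb downstream in 574 kb. So far from the TSS, these peaks cannot be assigned to the genes by position alone. Effectors were bound in 12 of 28, 42.9% (26.5 to 60.9). Rilpl1, which belongs to the RILP family of motor adaptors, had 55 fragments and a fold of 18.8 at 1.49 kb downstream. Rilpl1 and Rabgef1 lie on chromosome 5, the distal part of which had the higher NIS background given for Rab35. Mical1, a Rab-binding regulator of actin, had a fold of 15 at 0.985 kb downstream. Of the prenylation and GDI genes 1 of 6 was bound, 16.7% (3.01 to 56.4), namely Rabggtb, a subunit of the enzyme that prenylates Rab proteins, with a fold of 5.91. Of the genes that act with Rab5 on early endosomes, Rabgef1, Rin3, Rabep1, Eea1 and Appl1 had peaks, whereas Rin1, Rin2 and Rabep2 and the genes of Rab5 itself had none. These genes were grouped after their values were seen.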

How the data were processed

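Base calls came from CASAVA 1.8 and unique alignment to mm9 from Bowtie 1, and the authors called peaks with MACS2 2.0.10 at a q cutoff of 0.05, keeping 1 tag per position, per the submitters' processing notes, the study's methods and the file header. The header gives a fragment length of 119 bp and 1 alignment per arm, and labels and methods speak of 2 replicate experiments whereas the design text lists 3 Runx3 libraries. The deposited pileup is a signal scaled by the authors to NIS depth, in which 1 Runx3 fragment is 0.569. Fragments recovered from it were whole within 0.00872. The deposited fold is the ratio of pileup plus 1 to NIS background plus 1. The deposited −log10 q column had an unreadable header cell and was identified by position and values. Removing duplicate tags limits peak height, a high local background lowers the fold, and unique alignment leaves repeats without peaks.

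Annotation was GENCODE vM1 on NCBIM37, the assembly of mm9, with the longest model kept where a name recurred (22380 models, 22225 genes). Shares carry Wilson and counts exact Poisson 95% intervals. The members, role groups, partner list and tests were chosen with earlier results of these data known. Every Rab gene is named. Full values go to the strongest peak of the 10 genes with the highest folds, of each role group and of genes with 4 or more peaks, and partners are named by the 2 highest folds per role. Genes with many peaks and the Rab5-step genes were named after their values were seen. Python 3.11.15, NumPy 2.4.6, pandas 2.3.3, SciPy 1.17.1 and pysam 0.24.0 were used. Scripts were tested on simulated data. Alternatives covered the peak threshold, window, overlap rule, gene models, motif and promoter definitions.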

Additional observations from a re-analysis of the deposited data

How the results depend on the processing

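Over 78 alternative values of the 6 main results, 67 kept their side of the threshold or stayed within 1.5 times or the interval of the main value, 10 moved, 1 was weaker and none reversed. With peaks of fold 10 or more, 12 Rab genes (21.8%, against 9.88% of all genes), 15 peaks with a median fold of 11.6 (12.5 over all autosomal peaks) and 16 partner genes were called. With the basal plus extension domain, which runs up to 1 Mb to the neighbouring genes, 32 Rab genes (58.2%, against 44.4% of all genes) held 68 peaks with a promoter share of 22.1%. With peaks over 1 kb from every TSS, 13 Rab genes (23.6%, against 15.4%), 21 peaks and 22 partner genes were called. With TGTGGT alone the core share was 45.9% with an exact adjusted p of 0.0923, the largest over the alternatives tested, whose exact adjusted p otherwise ran from 2.50e-07 to 0.0215. The cause of these shifts was not tested beyond the smaller or larger number of peaks each setting takes in. Without the distal part of chromosome 5, 20 Rab genes, 36 peaks and 30 partner genes were left. With peaks of −log10 q of 5 or more, the Rab count stayed at 21 (38.2%, 26.5 to 51.4). The share of all genes was then 23.8%, below that interval. Counting only peaks in the window of 1 gene, counting Rab37 by its unshared peak, taking the strongest peak of each gene and leaving out Rab42-ps with Rab3il1 were chosen after seeing the data. No paired analysis was possible because the one peak list holds no values per library, and for the same reason no library could be left out. At 11 to 83 fragments per summit, differences between most Rab peaks lie within counting error.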

Other observations

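The letters GGAAGTG, a form of the ETS-family site, were looked for on both strands within 100 bp of the summits after the printed sequences had been read, so the counts are a description. They occurred at 14 of the 37 Rab summits, or 37.8% (Wilson interval 24.1 to 53.9), against 22.9% of all autosomal peaks and 22% of those in gene windows. They were at the Rab35 summit, the strongest peaks of Rab37, Rab6, Rab8b and Rab27a, and the Rab2a peak that stood highest without a RUNX core. Of the 25 summits with a RUNX core 9 had them, and of the 12 without one 5 did. Either the RUNX core or GGAAGTG was present at 30 of 37 summits, 81.1%, against 74.3% of all autosomal peaks.

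The promoter peaks of the Rab genes lay in GC-rich sequence, with a median GC content of 69.4% against 47.8% for the intronic ones, and over all autosomal peaks the medians were 65.2% and 48.8%. Their median fold was 8.71, beside 8.94 for the intronic Rab peaks, and the 3 intergenic peaks, those of Rab35 and Rab19, had a median of 16.8.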
